A study of Mus musculus with 6 samples.

Results

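Messenger RNA of 33 genes for the TCA cycle and the oxidation of pyruvate and glutamate was followed in ribosome-bound RNA of the mouse brain after stroke. The genes were taken by symbol from a fixed list, and no measured value entered that rule. The list itself was chosen with earlier results of these data known. All 33 were present among the 12968 genes of the table, and all 33 had a mean high enough to be tested. RNA came from the middle section of the left hemisphere. The MCAO group is 3 animals whose middle cerebral artery was blocked for 1 h, and the control group is 3 animals left without occlusion, with no sham operation described. The protocol gives killing after 3 days. RiboTag is an epitope tag on a ribosomal protein that Cre recombinase switches on, so that ribosomes of the Cre-expressing cells can be precipitated with their RNA. The series title names astrocytes, but the labels used here give neither the Cre driver nor the strain, sex or age. For each animal 2 precipitations were pooled, and the 2 technical replicates named in the design form 1 column, so a library is 1 animal.

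The TCA cycle burns acetyl-CoA in the mitochondrial matrix and passes its electrons to the respiratory chain. Pyruvate enters the matrix through the mitochondrial pyruvate carrier. There the pyruvate dehydrogenase complex turns it into acetyl-CoA, or pyruvate carboxylase turns it into oxaloacetate. Pyruvate dehydrogenase kinases switch the complex off by phosphorylation, and its phosphatases switch it on again. In the brain, carboxylation of pyruvate is a known trait of astrocytes. Glutamate taken up at synapses can enter the cycle as alpha-ketoglutarate, through glutamate dehydrogenase or through aminotransferases.

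Values are read counts divided by 1 scale factor per library, called scaled reads here. The shallowest library, MCAO 2, held 882263 reads and the deepest, control 1, held 9519548, and the 33 genes together held 5739 to 62770 reads per library. No 2 libraries had identical values. All 12 astrocyte markers looked for were in the table, and their summed level was 26863 to 42606 scaled reads among controls and 30685 to 41418 among MCAO animals. These markers did not move as 1: Gfap, the filament gene of reactive astrocytes, rose from a mean of 576 to 6372 (limma adjusted p = 1.9e-07), and the glutamate transporter gene Slc1a3 had means of 4885 and 2903, without overlap and not called (adjusted p = 0.114). Without Gfap the sum of the other 11 was 26340 to 41957 in controls and 24870 to 33390 after MCAO. All 12 neuron markers were in it too, between 18702 and 22527 in controls and between 18671 and 21090 after MCAO. The summed level of 8 striatal neuron markers was 2196 to 2390 in the control group and 954 to 1335 in the MCAO group, that of 12 microglia markers 599 to 781 and 2208 to 2929, and that of 10 oligodendrocyte markers 8412 to 9578 and 12554 to 15912. The 6 oligodendrocyte precursor markers summed to 623 to 873 in controls and 1013 to 1354 after MCAO. Of 8 endothelial markers Kdr, Tek, Cdh5 and Ly6c1 were not in the table. The 4 present summed to 48.9 to 63.9 in controls and 52.0 to 63.0 after MCAO. Of 8 blood myeloid markers only 1, Lyz2, was in the table, with means of 17.1 and 94.1 (limma adjusted p = 0.00022). The precipitates thus held RNA with the markers of several cell types. In such bulk RNA, fewer cells of a type and less RNA per cell cannot be told apart.

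None of the 33 genes passed the test between MCAO and control animals. Limma called 0 of 33 at an adjusted p under 0.05, with 4 at an unadjusted p under 0.05. Among all 12549 genes tested 3.08% were called, and 19.3% had an unadjusted p under 0.05, against 12.1% of the 33. The lowest adjusted p was 0.201, that of Pdp1. The median log2 change of the 33 genes was -0.01, with 15 positive and 18 negative values, and that of all genes tested was also -0.01. A share of 0 in 33 beside 3.08% does not set these genes apart.

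The size of the differences was bounded by the data for most of the 33 genes. Log2 changes ran from -0.72 in Pdk3 to 0.40 in Idh1, and 22 genes lay within 0.25 of 0. The 95% interval of the difference stayed inside a 2-fold change in either direction for 32 genes, the exception being Pdk3. It stayed inside a 1.5-fold change for 22 genes. Among all genes tested, 67.4% had an interval inside 2-fold and 25.6% inside 1.5-fold. The 33 genes had a median level of 379 scaled reads, against 86.5 for all genes, so their intervals rest on more reads. In 4 genes the values of the groups did not overlap. These were Suclg1 and Me1, which lay above, and Pdp1 and Pdk4, which lay below. Such groups without overlap made up 12.1% of the 33 genes and 24.9% of all genes tested.

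**Figure D1:**
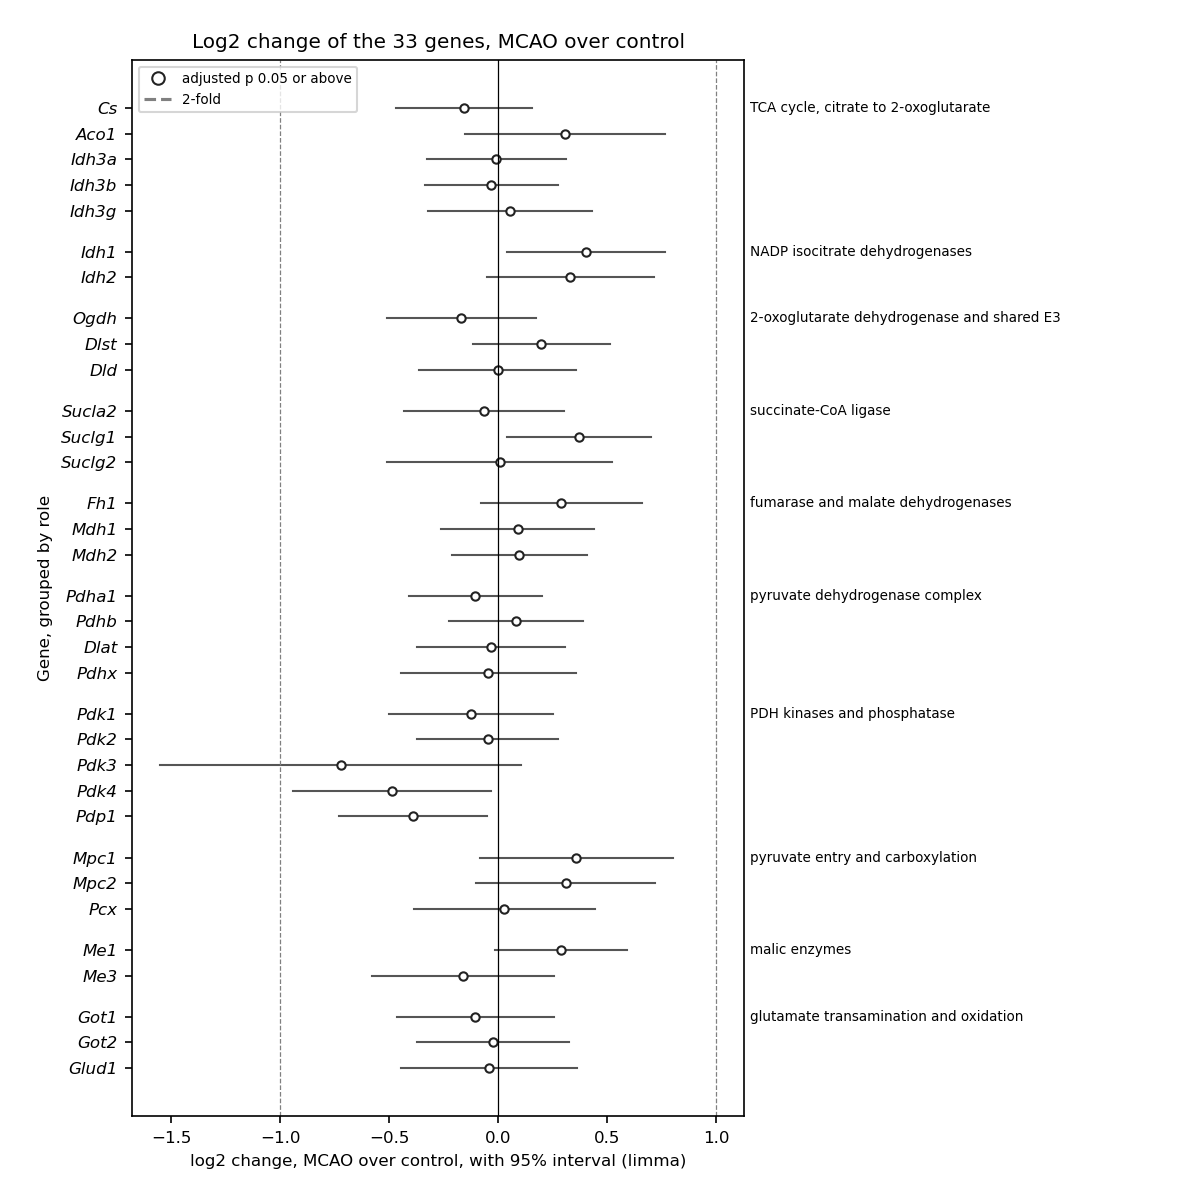
Log2 change (MCAO over control, horizontal axis) of the 33 genes in order of their roles; points are limma estimates, lines 95% intervals, and dashed lines mark a 2-fold change. No gene passed the test, and only the interval of Pdk3 crosses the 2-fold line.

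The 4 genes of the pyruvate dehydrogenase complex differed little between the groups, and 0 passed the test. Pdha1, which encodes the alpha subunit of its decarboxylase, was at 1128, 1293 and 1077 scaled reads in controls 1, 2 and 3 and at 1043, 1073 and 1130 in MCAO 1, 2 and 3. The groups overlapped, with a log2 change of -0.10 (95% interval -0.41 to 0.20, limma adjusted p = 0.732). Pdhb, the beta subunit, had means of 383 ± 42.5 and 404 ± 14.4 (SD, n = 3 each, here and below). Dlat, which encodes the acetyltransferase core, had means of 268 ± 42.3 and 260 ± 16.0. Pdhx, the protein that anchors dihydrolipoamide dehydrogenase to this core, had 180 ± 13.8 and 177 ± 42.3. All 4 intervals stayed inside a 1.5-fold change. In Pdhb and Dlat the MCAO animals differed less among themselves than the controls did.

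The regulators of this complex had negative log2 changes in 5 of 5 genes, where 51.3% of all genes tested were negative, and 0 of the 5 passed the test. The sign of Pdk2 turned without control 1 (0.04), without MCAO 1 (0.05) and with quantile normalisation (0.00), and that of Pdk1 with library weights (0.02). Pdp1 (chromosome 4, 11958183 to 11966450), the catalytic subunit of a phosphatase that activates the complex, was at 387, 483 and 362 scaled reads in controls and at 351, 280 and 306 after MCAO. All 3 MCAO animals lay below all controls, although MCAO 1 and control 3 were close. The log2 change was -0.39 (SE 0.16, unadjusted p = 0.0279, limma adjusted p = 0.201). Pdk4 (chromosome 6, 5483351 to 5496278), a kinase known for its induction in fasting, was at 106, 101 and 92.1 in controls and at 56.5, 74.6 and 83.9 after MCAO. Its groups did not overlap either, and MCAO 1 was lowest. Its log2 change was -0.49 (SE 0.21, adjusted p = 0.226), and -0.33 without MCAO 1. Kinase and phosphatase act on the complex in opposite directions, and its activity was not measured.

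The groups of the other kinase genes gave no called difference. Pdk2 was at 513, 426 and 420 scaled reads in controls and at 382, 451 and 481 after MCAO, with overlapping groups (log2 change -0.05, interval -0.37 to 0.28). Pdk1, known as a target of hypoxia signalling, had means of 188 ± 31.8 and 171 ± 16.0 (-0.13, interval -0.50 to 0.25). The size of the negative value of Pdk3 came mostly from a single library. Pdk3 was at 58.7, 63.9 and 52.8 in controls and at 54.7, 15.6 and 49.3 after MCAO. The low value of MCAO 2, the shallowest library, stood for 5 reads, with a 95% exact Poisson interval of 1.62 to 11.7 reads, or 5.05 to 36.3 scaled reads, which covers counting error only. MCAO 1 and 3 lay above this interval. The log2 change was -0.72 (SE 0.39) with all libraries and -0.16 (SE 0.24) without MCAO 2.

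**Figure D2:**
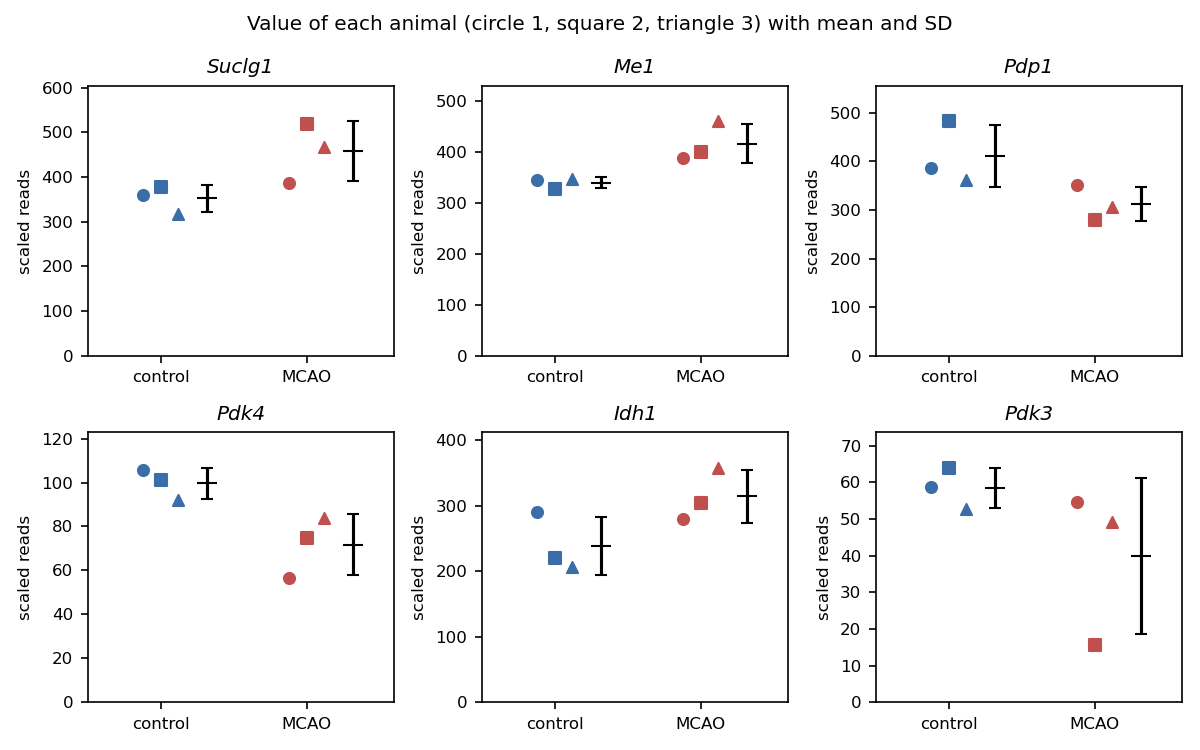
Scaled reads (vertical axis) of each animal for 6 genes, with the mean and SD of each group as a bar; symbols give the animal number. Suclg1, Me1, Pdp1 and Pdk4 show groups without overlap, in Idh1 control 1 lies above MCAO 1, and in Pdk3 only MCAO 2 lies far below, at 15.6.

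Entry of pyruvate into the matrix showed no called difference. Mpc1, a subunit of the pyruvate carrier, was at 357, 195 and 341 scaled reads in controls and at 336, 411 and 364 after MCAO (log2 change 0.36, adjusted p = 0.366). Control 2 alone was low in Mpc1, and without it the log2 change was 0.08. Mpc2, the other subunit, had means of 102 ± 16.0 and 127 ± 14.5 (0.31, interval -0.10 to 0.72). Pcx, the pyruvate carboxylase gene, was at 388, 436 and 320 in controls and at 281, 448 and 457 after MCAO. MCAO 1 was the lowest of all 6 libraries in Pcx, and the other MCAO libraries were the highest. The group means of Pcx, 381 ± 58.5 and 395 ± 99.3, therefore hide a wide spread after MCAO.

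Among those of the 33 genes listed for the cycle, which include the cytosolic forms Aco1 and Mdh1, 0 passed the test. The groups overlapped in all but Suclg1. Cs, the citrate synthase gene, was at 1449, 1288 and 1286 scaled reads in controls and at 1153, 1123 and 1339 after MCAO (log2 change -0.16, interval -0.47 to 0.15). The 3 subunit genes of the NAD-dependent isocitrate dehydrogenase had log2 changes near 0: -0.01 for Idh3a, -0.03 for Idh3b and 0.05 for Idh3g. Idh3b differed little among MCAO animals, at 671 ± 17.7, against 688 ± 80.7 in controls. Ogdh, the decarboxylase of the alpha-ketoglutarate dehydrogenase complex, was at 996, 1256 and 933 in controls and at 958, 821 and 1043 after MCAO (-0.17, interval -0.51 to 0.17). Dlst, the succinyltransferase of the same complex, had a log2 change of 0.20, and Dld, the dihydrolipoamide dehydrogenase that this complex shares with pyruvate dehydrogenase, had means of 360 ± 49.6 and 361 ± 63.2. Aco1, which encodes the cytosolic aconitase that also serves as an iron sensor, had means of 90.9 ± 10.5 and 115 ± 28.8. MCAO 3, at 145, stood above the other 5 libraries in Aco1.

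Succinate-CoA ligase pairs the alpha subunit of Suclg1 with a beta subunit that makes either ATP, from Sucla2, or GTP, from Suclg2. Suclg1 (chromosome 6, 73248505 to 73276907) was at 361, 378 and 318 scaled reads in controls and at 387, 519 and 468 after MCAO. All MCAO animals lay above all controls, with control 2 and MCAO 1 close to each other. The log2 change was 0.37 (SE 0.15, unadjusted p = 0.0302, limma adjusted p = 0.208). Sucla2 was at 473, 669 and 468 in controls and at 552, 429 and 546 after MCAO, and Suclg2 was at 224, 114 and 207 and at 137, 196 and 198. Neither beta subunit separated the groups, with log2 changes of -0.06 and 0.01. The beta subunits went opposite ways between libraries of 1 group, however. The ratio of Suclg2 to Sucla2 was 0.474, 0.170 and 0.442 in controls 1, 2 and 3 and 0.248, 0.457 and 0.363 in MCAO 1, 2 and 3. Control 2 thus had the lowest ratio and MCAO 1 the next.

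Fumarase and the mitochondrial malate dehydrogenase close the cycle. Fh1, the fumarase gene, had means of 299 ± 44.4 and 368 ± 69.9 (log2 change 0.29, interval -0.08 to 0.66). Mdh1, the cytosolic malate dehydrogenase of the malate-aspartate shuttle, was at 1934, 2494 and 1992 scaled reads in controls and at 2410, 2009 and 2395 after MCAO. Mdh2, its mitochondrial counterpart, had means of 1114 ± 116 and 1189 ± 74.3. The groups overlapped in all 3 genes, and the log2 changes of Mdh1 and Mdh2 were 0.09 and 0.10.

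**Figure D3:**
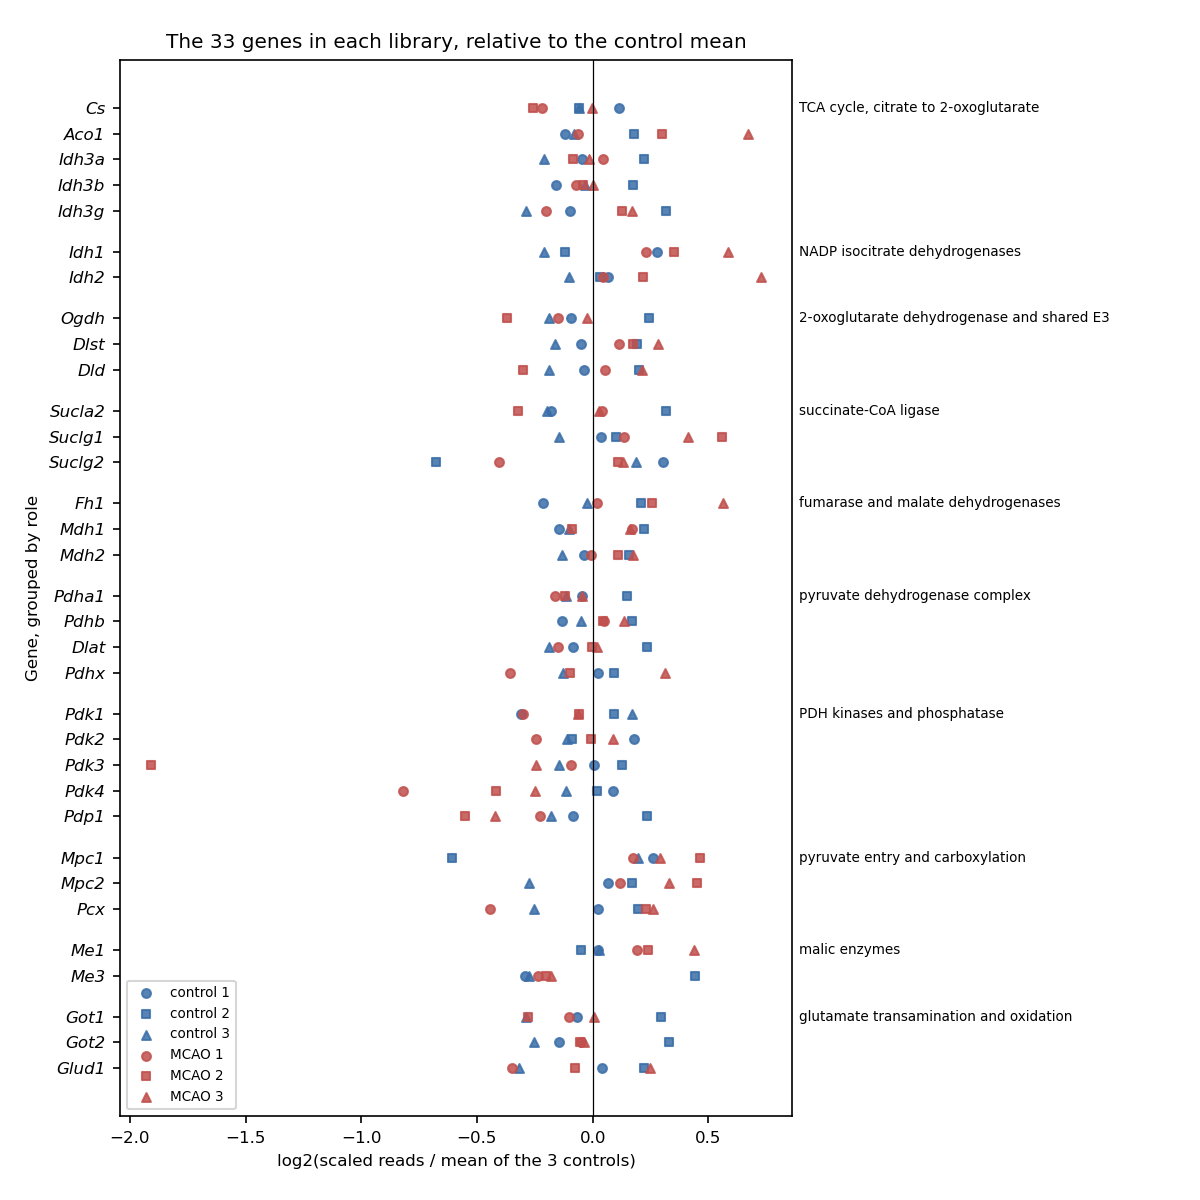
Scaled reads of the 33 genes in every library, as log2 of the ratio to the mean of the 3 controls (horizontal axis); colours give the group and symbols the animal. Most points lie within 0.5 of 0 and the colours mix in most rows. Among the points far to the left are Pdk3 in MCAO 2, Pdk4 in MCAO 1, and Suclg2 and Mpc1 in control 2.

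Enzymes that make NADPH beside the cycle had higher means after MCAO in 3 of 4 genes, and 0 of the 4 passed the test. Idh1, the cytosolic NADP-dependent isocitrate dehydrogenase, had the largest positive log2 change of the 33 genes. It was at 290, 220 and 207 scaled reads in controls and at 280, 305 and 358 after MCAO. Control 1 lay above MCAO 1, so the groups overlapped (log2 change 0.40, SE 0.17, adjusted p = 0.215). Idh2, the mitochondrial form, was at 258, 252 and 229 and at 254, 286 and 408, and MCAO 3 lay far above the other 5 libraries (0.33, interval -0.05 to 0.71). Me1 (chromosome 9, 86581363 to 86695914), the cytosolic malic enzyme, was at 345, 328 and 347 in controls and at 388, 401 and 461 after MCAO. All 3 MCAO values were higher than all controls, whose own spread was small (340 ± 10.5 against 417 ± 38.7). The log2 change was 0.29 (interval -0.01 to 0.59, adjusted p = 0.279). Me3, a mitochondrial malic enzyme, had means of 232 ± 72.3 and 201 ± 4.07 (-0.16, and 0.08 without control 2). Its control spread came from control 2, at 316 against 189 and 192.

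Promoter sequences are shown for the genes whose groups did not overlap, to set known promoter motifs beside their values. RefSeq windows (assembly GRCm38.p6) were at hand for 31 of the 33 genes, 42 windows in all, from 250 bases before to 50 after a gene start; Idh3a and Pdp1 had no entry. The sequences below run 5′ to 3′ along the gene from 150 bases before its start to 10 after it. Capitals mark matches, on either strand, to TGACNNNGC (the core of the antioxidant response element bound by NRF2), to the CCAAT box or to the GC box GGGGCGGGG.
Me1, chr9:86695905-86696064, minus strand: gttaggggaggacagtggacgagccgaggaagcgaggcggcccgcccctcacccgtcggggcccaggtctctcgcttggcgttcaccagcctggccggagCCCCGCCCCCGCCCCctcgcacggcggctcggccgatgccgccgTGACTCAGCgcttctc
Pdk4, chr6:5496269-5496428, minus strand: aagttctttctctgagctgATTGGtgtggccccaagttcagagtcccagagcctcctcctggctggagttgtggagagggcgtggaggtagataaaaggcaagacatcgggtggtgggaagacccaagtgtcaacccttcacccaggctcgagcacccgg
Suclg1, chr6:73248355-73248514, plus strand: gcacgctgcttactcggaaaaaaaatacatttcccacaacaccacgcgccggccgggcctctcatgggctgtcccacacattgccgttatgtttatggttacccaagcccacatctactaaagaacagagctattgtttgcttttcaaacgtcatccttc
The Me1 stretch holds TGACTCAGC, which begins 6 bases before the gene start and includes the AP-1 site TGACTCA, and 2 GC boxes that overlap each other. The Pdk4 stretch holds a CCAAT box on the opposite strand. The Suclg1 stretch holds none of these letters, so the 3 genes shared no match here.

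Over all 42 windows of the 33 genes, TGACNNNGC was found in 16.7%, against 12.4% of the 32851 windows of all genes. The 7 genes with it were Dlst, Idh3g, Mdh1, Me1, Mpc1, Pdhb and Sucla2, of which Me1 alone had groups without overlap. CCAAT was found in 59.5% of the windows against 37.4%, and the GC box in 26.2% against 11.4%. GCGCANGCG, the core of the site of NRF1, a factor known for mitochondrial genes, was found in 9.52% against 6.25%, in Dld, Ogdh and Sucla2. TCAAGGTCA, bound by estrogen-related receptors, was found in 0 of the 42 windows and in 0.423% of all. Windows of 1 gene can overlap, as those of Ogdh do, so the shares are descriptions with no test. A match is no evidence of a bound site, and a missing match says only that these letters are not in the window.

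Genes of glutamate oxidation and transamination showed no separation between the groups. Glud1, the glutamate dehydrogenase gene, was at 1842, 2088 and 1437 scaled reads in controls and at 1405, 1695 and 2125 after MCAO. Each group spanned nearly the whole range, with a log2 change of -0.04 (interval -0.44 to 0.36). Got1, the cytosolic aspartate aminotransferase, had means of 1185 ± 247 and 1090 ± 107, and Got2, the mitochondrial form, 872 ± 196 and 844 ± 4.95. Control 2 was the highest library in both aminotransferases, at 1455 and 1096. All 3 intervals stayed inside a 1.5-fold change.

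The spread among animals of 1 group was large beside the differences between the groups. The median within-group SD of the 33 genes was 0.22 on the log2 scale, and their median log2 change without regard to sign was 0.10. Over all genes tested these values were 0.27 and 0.26, and genes in the same range of levels had a median SD of 0.23. Control 2 was the highest control in 24 of the 33 genes, or 72.7%, against 39.1% of all genes tested. Its median offset from the mean of the other controls was 0.27 on the log2 scale, where that of all genes was 0.00. MCAO 3 was the highest MCAO library in 24 genes too, against 30.4% of all genes, with a median offset of 0.20. MCAO 1 was the lowest MCAO library in 22 genes, with a median offset of -0.15. Control 3 was the lowest control in 23, at -0.21, and over all genes both offsets were 0.01. Shares over all genes were not computed for these lowest counts. Control 2 was the lowest control in Suclg2, Mpc1 and Me1 only. Suclg2 and Mpc1 stood there at 0.527 and 0.559 times the mean of the other controls, while Me3 stood at 1.66 times, Got2 at 1.44 times and Sucla2 at 1.42 times.

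Cell type markers differed between the same libraries. In control 2 the summed astrocyte markers were at 26863 scaled reads, against 42606 and 40809 in the other controls, and the summed neuron markers at 22527, against 18702 and 19536. All 12 astrocyte markers were lower in control 2 than the mean of the other controls, from 0.514 times in S100b to 0.897 times in Aldh1l1, with a median of 0.598. Of the 12 neuron markers 11 were higher, mostly by little: the median was 1.10 times, from 0.940 in Map2 to 1.67 in Nefm. After MCAO the astrocyte sum was lowest in MCAO 1, at 30685, and highest in MCAO 3, at 41418, and the sum without Gfap had the same order. The neuron sum was 21090, 18671 and 18721 in MCAO 1, 2 and 3. Against the mean of the other MCAO libraries, 9 of the 12 neuron markers were higher in MCAO 1 and 9 were lower in MCAO 3. The part of these markers in the values of the 33 genes was not tested. Without control 2, 24 of the 33 log2 changes were positive in place of 15, the median was 0.10, and 0 genes were called (lowest adjusted p = 0.193, Suclg1).

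**Figure D4:**
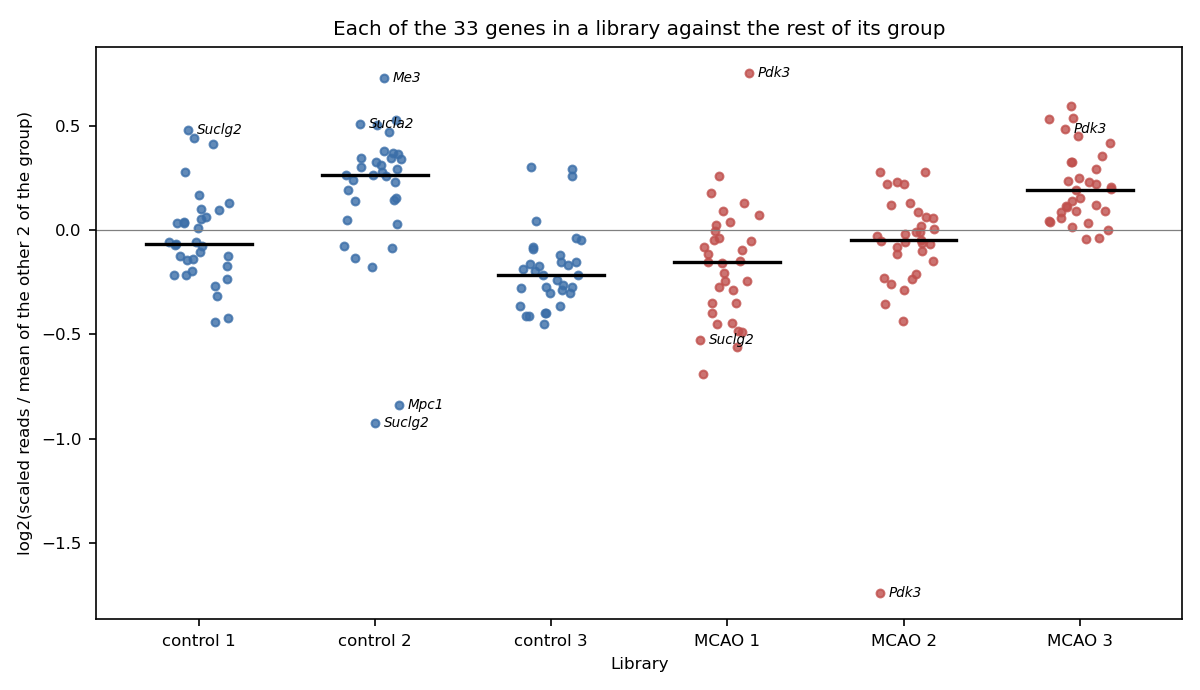
Each point is 1 of the 33 genes in 1 library, as log2 of its ratio to the mean of the other 2 libraries of the group (vertical axis); black bars are medians. Control 2 and MCAO 3 lie mostly above 0, with Suclg2 and Mpc1 as low points of control 2 and Pdk3 as that of MCAO 2.

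Around the 33 genes, 44 further genes of the same pathways were listed, and 43 were tested, all but Dhtkd1. Limma called 1 of the 43 higher after MCAO and 0 lower, with 7 at an unadjusted p under 0.05, where 2.30% of all genes were called higher and 0.789% lower. Their median log2 change was -0.02, and 8 had groups without overlap, 18.6% against 24.9% of all genes. The called gene was Pck2 (chromosome 14, 55540263 to 55550020), the mitochondrial phosphoenolpyruvate carboxykinase, which draws oxaloacetate out of the cycle and is also known as a target of the integrated stress response. It was at 56.4, 60.3 and 46.8 scaled reads in controls and at 94.7, 115 and 102 after MCAO, so that the groups lay far apart. Pck2 rose by 0.92 on the log2 scale (SE 0.21, limma adjusted p = 0.0300). The call was lost without control 1 (adjusted p = 0.0824), control 3 (0.0979), MCAO 1 (0.0556), MCAO 2 (0.0911) or MCAO 3 (0.107) and with no intensity trend (0.0691). Over these settings its log2 change stayed between 0.82 and 0.99. Microglia and oligodendrocyte marker sums were higher in the same MCAO libraries, as given above, and their part in this value was not tested.

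Succinate dehydrogenase, the cycle enzyme that is also respiratory complex II, had unequal values among its subunit genes. Sdhb, the iron-sulfur subunit, was at 315, 268 and 308 scaled reads in controls and at 371, 473 and 452 after MCAO (log2 change 0.53, SE 0.15, adjusted p = 0.0755). Sdhc, a membrane anchor, was at 333, 312 and 324 and at 409, 429 and 458 (0.42, SE 0.14, adjusted p = 0.117). In both genes all MCAO animals lay above all controls, and neither passed the test. With library weights both were called (adjusted p = 0.0291 and 0.0408). Sdha, the flavoprotein subunit, had means of 1598 ± 363 and 1557 ± 196. Sdhd, another subunit, had means of 216 ± 48.2 and 264 ± 40.1, with overlapping groups. Its log2 change was 0.30 (interval -0.10 to 0.69, limma adjusted p = 0.406). Whether Sdhb and Sdha differed from each other in their response was not tested.

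The remaining phosphatase genes of pyruvate dehydrogenase lay on the same side as Pdp1. Pdp2, another catalytic subunit, was at 57.8, 53.2 and 61.9 scaled reads in controls and at 32.4, 34.2 and 52.6 after MCAO (log2 change -0.56, SE 0.27, adjusted p = 0.270). Pdpr, the regulatory subunit, was at 46.3, 58.5 and 49.8 and at 37.7, 15.6 and 36.0 (-0.87, SE 0.34, adjusted p = 0.185). All MCAO animals lay below all controls in both, as in Pdp1, and 0 of these 3 genes passed the test. In Pdp2 the gap was narrow, with control 2 at 53.2 and MCAO 3 at 52.6 (limma unadjusted p = 0.0548). A single read of control 2 stood for 1.77 scaled reads, more than this gap. The value of Pdpr in MCAO 2 stood for 5 reads, and without that library its log2 change was -0.47. Groups with MCAO below made up 12.5% of all genes tested. The striatal neuron marker sum was lower in the same libraries, and its part in these values was not tested.

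Other routes into the cycle gave no called difference. The 9 tested genes that feed glutamine, alanine, GABA or proline into glutamate or succinate had log2 changes from -0.36 in Gpt2 to -0.00 in Gpt, and 0 were called or free of overlap. Gpt2, an alanine aminotransferase, and Abat, the GABA transaminase, had log2 changes of -0.36 and -0.31 (adjusted p = 0.315 and 0.314). The 4 genes of ketone body and acetate use, Oxct1, Bdh1, Acat1 and Acss1, had log2 changes between -0.04 and 0.04. Of 7 genes for branched-chain amino acids and propionate, Mut, the methylmalonyl-CoA mutase gene, had groups without overlap, with a log2 change of -0.41 (adjusted p = 0.163). Among 7 mitochondrial carriers, that was so for the glutamate carrier gene Slc25a22, at -0.34 (adjusted p = 0.230). Of these carriers 5 had positive log2 changes, and Slc25a18 was at 0.25. The largest, 0.47 in Slc25a13, rested on few reads, with means of 8.96 and 12.6 scaled reads (SE 0.52, interval -0.63 to 1.58). Slc25a1 was at 0.42 with overlapping groups (limma unadjusted p = 0.0404, adjusted p = 0.236).

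**Figure D5:**
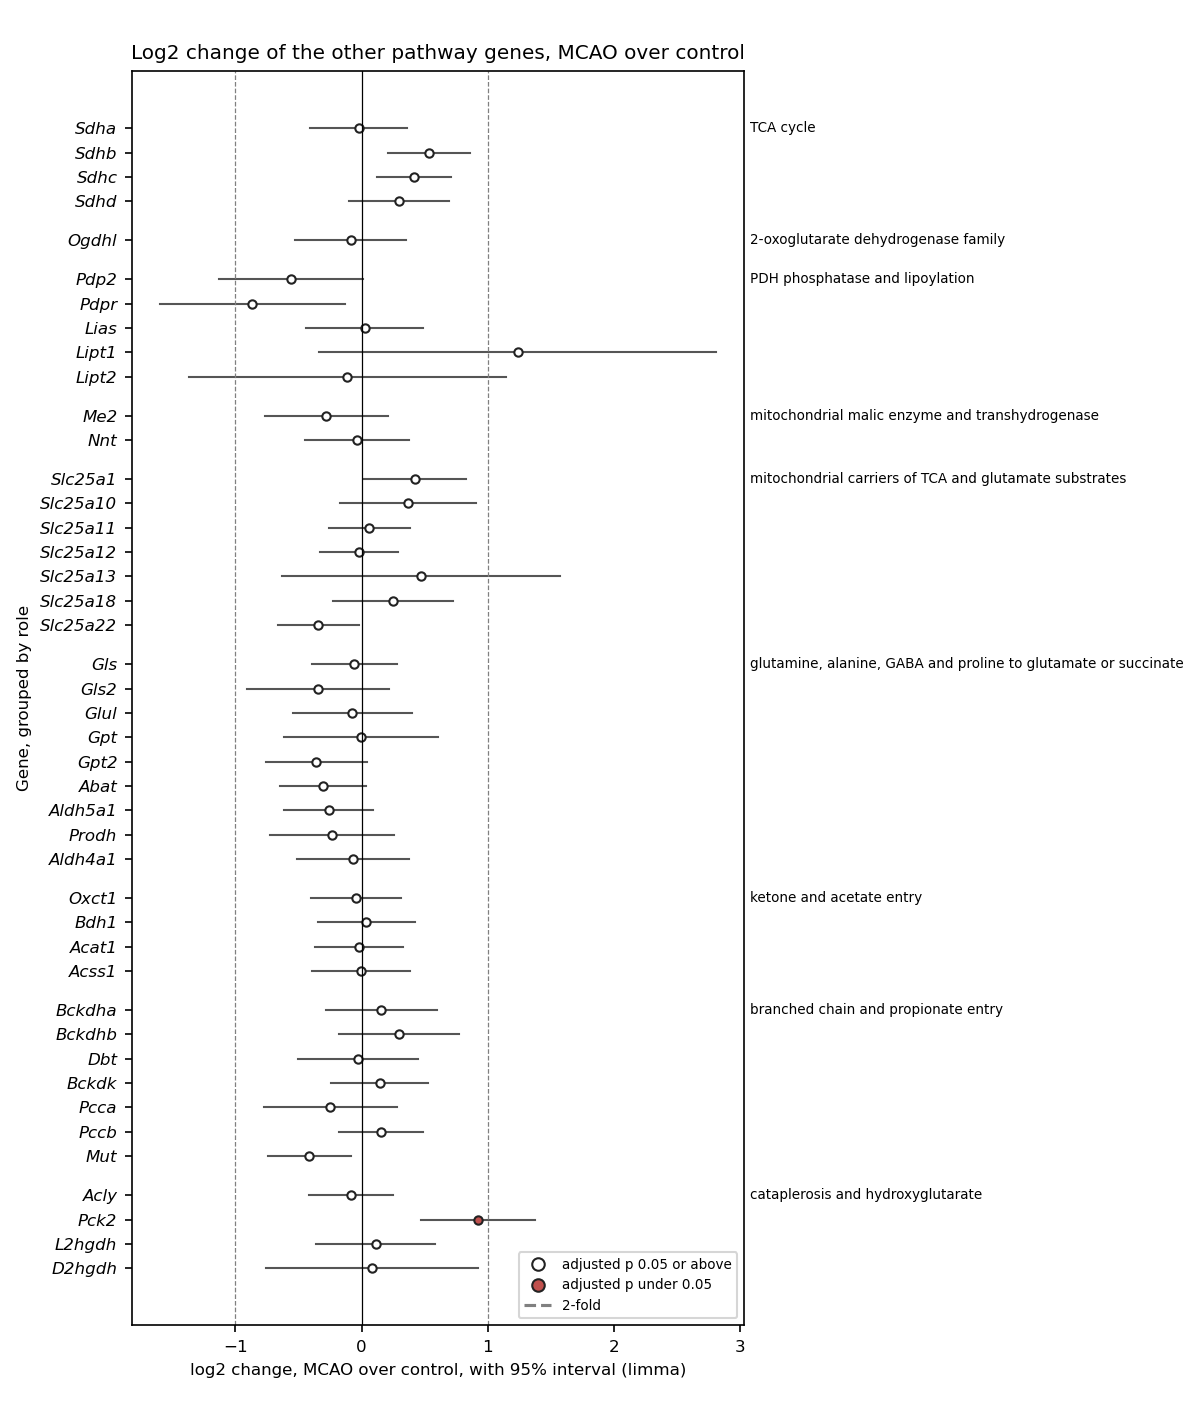
Log2 change (MCAO over control, horizontal axis) of the 43 other pathway genes tested, with 95% intervals; the filled point passed the test and dashed lines mark a 2-fold change. Pck2 is the only filled point, and intervals are wide in the genes with few reads, such as Lipt1 and Lipt2.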

How the data were processed

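RiboTag-precipitated RNA of 6 animals was measured by RNA-seq, 3 controls and 3 after MCAO. The deposited table gives a normalised signal of 1 column per animal: apart from a floor at exactly 1, each column holds whole multiples of a step of its own, to within 0.1 read for at least 99.95% of values, so the values are read counts over a scale factor. Names in the submitters' processing notes are mm10 as the build and DESeq2, R 3.3.1, Partek 6.6, HISAT2 and CASAVA 1.8 as tools, without their roles. The sources used here do not say how genes were counted and filtered or whether strand was used. All 6 columns were matched to samples by name.

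Tests used limma 3.58.1 in R 4.3.3 (intensity trend, two-sided) on log2(value + 1), in 12549 genes whose mean reached 10, with Benjamini-Hochberg adjustment over all of them. The 1 added before taking log2 makes changes of low genes look smaller. Intervals are 95%, moderated and not adjusted for the number of genes. The fit was tested on simulated data with changes of 2-fold or 4-fold in either direction and 1 spread setting for all genes. That test does not cover smaller changes. The 33 genes and all lists were chosen with earlier results of these data known. By rule, values of each library are given for those of the 33 genes whose groups do not overlap. The same holds for the gene with the most reads of each role. Among the other pathway genes it holds for those that passed the test or did not overlap at an unadjusted p under 0.01. Other genes named or given by library were chosen after their values were seen. A gene of the wider pathway list is not reported here and was left out of that list's counts. The labels give no batch or pairing, and replicates are numbered in record order. Gene positions and promoter windows come from RefSeq, assembly GRCm38.p6, on which mm10 is based. The alternatives tried were other pseudocounts, filters, moderation, scaling (quantiles, or trimmed means of log ratios without weights), library weights and left-out libraries. No transcript lengths were used, so levels are compared between libraries and not between genes.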

Additional observations from a re-analysis of the deposited data

How the results depend on the processing

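Of the 33 genes 0 were called under any of the 16 alternatives, with a lowest adjusted p of 0.0575 (Fh1, library weights), and a miss of the threshold does not show that they were alike. The sign of the log2 change turned in 12 of the 33 with library weights or without the 2 shallowest libraries, in 11 without control 2 and in 0 to 5 with any other single library left out or another scaling. Their median was 0.13 without the 2 shallowest libraries. Genes called over the whole table numbered 157 with no intensity trend (139 higher, 18 lower) and 1002 with library weights (566 higher, 436 lower). Higher genes numbered 181 with the minimum mean set to 50, and lower genes 236 without the 2 shallowest libraries. With 1 library left out, called genes numbered 148 to 306, 120 to 220 higher and 23 to 97 lower. Of the other pathway genes 0 were called with no intensity trend, 3 higher with library weights and 0 to 1 with a library left out. The planned count tests with edgeR and DESeq2 were not run, since a strict reading of the lowest values recovered whole reads in only 1 of 6 columns, the floor at 1 hiding the step in the rest. A reading from the spacing of the low values gave whole reads in all 6 columns, for at least 99.95% of values. The read numbers and Poisson intervals rest on that reading, and count tests were not run on it. No paired analysis was possible because the labels give no shared replicate numbers. A count of 0 allows up to 3 reads, or 0.863 to 9.33 scaled reads depending on the library, and the median SE of the 33 log2 changes was 0.17. Intervals cover counting error only where they are Poisson intervals.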
